A study of Mus musculus with 6 samples.

Results

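Interferon regulatory factors (IRFs) are a family of transcription factors, and the 8 family genes Irf1, Irf2, Irf3, Irf4, Irf5, Irf7, Irf8 and Irf9 were followed here in regulatory T (Treg) cells. They were chosen by gene symbol, as probe sets annotated to exactly 1 of these symbols, and they hold 14 of 20393 single-gene probe sets and 8 of 12394 genes. Where a gene had several probe sets, the brightest over the 6 arrays stood for it and the others are given beside it. None of the 8 IRF genes differed between the groups past the threshold, and a 95% interval is given for the change of the brightest probe set of each.

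The cells were Treg cells of mouse spleen and lymph nodes, sorted by CD4, CD25 and the yellow fluorescent protein (YFP) of a Cre recombinase expressed from Foxp3, the gene of the factor that defines Treg cells. The group titled GATA3KO came from Gata3F/FFoxp3YFP-Cre mice, in which both alleles of Gata3 are floxed. The group titled WT came from Gata3F/+Foxp3YFP-Cre mice, which carry the same Cre and 1 floxed allele, so the comparison is of both alleles against 1 allele and not of Cre against no Cre. The design text gives 3 mice a group, each group has 3 arrays, and the age of the mice and the deleted part of Gata3 are not given in the sources used here.

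The targeted gene goes against its label on these arrays, and every direction below therefore rests on the labels alone. The single Gata3 probe set read 9.83, 9.98 and 9.71 log2 units in the arrays labelled GATA3KO, against 9.57, 9.41 and 9.47 in the arrays labelled WT. That is a log2 change of 0.35 ± 0.07 (SE, adjusted p = 0.0387 by limma), higher in all 3 arrays labelled GATA3KO, and a probe set outside the deleted part would check nothing. All 7 measured T cell markers were above the dim limit, a log2 intensity of 5.55 that is the 40th percentile of the gene means. Of 10 measured Treg markers 9 were above it, and the exception was Foxp3 itself, at 3.94 ± 0.12 in the arrays labelled GATA3KO and 3.90 ± 0.05 in the arrays labelled WT (SD, n = 3 each). The Treg markers were not alike in both groups. Nrp1, the gene of the surface receptor neuropilin 1, read 10.35, 10.25 and 10.18 in the arrays labelled GATA3KO, against 11.17, 11.05 and 10.88 in the arrays labelled WT, and fell by 0.77 ± 0.072 (SE, adjusted p = 0.00152 by limma), also in each of 6 fits that dropped an array. Ctla4 (0.22, adjusted p = 0.0531), Ikzf4 (0.26, adjusted p = 0.0865), Il2ra (0.20, adjusted p = 0.121) and Ikzf2 (0.088, adjusted p = 0.638) had changes above 0 that did not pass in limma. Their groups did not overlap, which held upwards for 11.3% of all genes. In the other measured Treg markers apart from Nrp1 the groups overlapped. The part of these marker differences in the values below was not tested.

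As background, IRF proteins share a DNA-binding domain that reads repeats of GAAA, found in the interferon-stimulated response element (ISRE) of interferon-induced promoters. Irf3, Irf5 and Irf7 are switched on by phosphorylation downstream of sensors of foreign nucleic acid, Irf9 is part, with STAT proteins such as Stat2, of the complex that carries the type I interferon signal, and Irf1 and Irf2 act as activator and antagonist on shared sites. Irf4 and Irf8 are lymphoid and myeloid factors that bind weakly alone and bind with partners such as Batf or PU.1, and in mouse Treg cells Irf4 is known for its part in effector differentiation. Much IRF regulation is of the protein, which an array of RNA does not read.

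Because several IRF genes are themselves targets of interferon signalling, their promoters were searched for 3 motifs on both strands. These were the ISRE core, 2 copies of GAAA set apart by any 2 bases, the composite site of an ETS factor and an IRF, GGAA and GAAA set apart by any 2 bases, and the STAT-binding gamma-activated site (GAS) TTCNNNGAA. The first and second can overlap. All 8 genes matched the RefSeq promoter table (build GRCm38.p6) with 11 windows of 300 bases, and 3 genes held a motif. The stretches that hold the motifs are shown, with that of Cxcl10, an interferon-induced gene described further on, motif bases in capitals and each read 5′ to 3′ on the gene's strand.
Irf1, chr11:53769904-53769952, plus strand, GAS starting 90 bases upstream: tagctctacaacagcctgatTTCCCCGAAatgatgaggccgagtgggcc
Irf2, chr8:46739495-46739549, plus strand, ETS-IRF composite at 247, ISRE at 241 and GAS at 224 bases upstream: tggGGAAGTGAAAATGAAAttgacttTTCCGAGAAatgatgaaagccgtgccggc
Irf8, chr8:120736167-120736233, plus strand, GAS at 171 and at 153 bases upstream: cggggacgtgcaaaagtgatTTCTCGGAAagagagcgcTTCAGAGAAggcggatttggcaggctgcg
Cxcl10, chr5:92349073-92349122, minus strand, ISRE starting 213 bases upstream: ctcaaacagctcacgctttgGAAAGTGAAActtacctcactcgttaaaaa
Over all 32851 promoter windows of this length, 3.44% held the ISRE core, 2.72% the composite and 8.3% the GAS. In the windows of Irf3, Irf4, Irf5, Irf7 and Irf9 these letters were not found, which says nothing about whether a factor binds there.

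The comparison asked whether loss of Gata3 from Treg cells alters the IRF transcripts. Over all 12394 genes 2.21% passed an adjusted p of 0.05 in limma, 1.44% higher and 0.766% lower in the arrays labelled GATA3KO, and 0 of the 8 IRF genes did so in either direction. At an unadjusted p under 0.05, which 14.4% of all genes reached, 1 of the 8 (12.5%) was lower in the arrays labelled GATA3KO and 0 were higher. That gene, Irf9, was also the 1 member whose groups did not overlap, against 19.8% of all genes in either direction and 8.51% downwards. Both IRF counts lie near the shares of all genes. The median log2 change was -0.067 over the 8 genes and 0.0078 over all genes. Of the 8 genes 5 had a change below 0, and 53.0% of all genes had one above 0.

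Irf9, the DNA-binding subunit of the type I interferon complex, read 9.33, 9.20 and 9.17 log2 units in the arrays labelled GATA3KO, against 9.46, 9.34 and 9.46 in the arrays labelled WT. All 3 arrays labelled GATA3KO lay below all 3 labelled WT, although replicate 1 of the first and replicate 2 of the second nearly met. The log2 change was -0.18 ± 0.06 (SE), with a 95% interval from -0.32 to -0.054, which is 1.14-fold lower. It did not pass over all genes (p = 0.0106, adjusted p = 0.162 by limma), and an exact permutation test gave p = 0.1, the smallest that 3 arrays against 3 allow. With 1 array left out in turn its adjusted p ran from 0.0858 to 0.383.

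Irf7, the factor that amplifies interferon production once interferon has induced it, had the largest estimate of the 8 genes and also the widest spread between the 6 arrays. It read 7.80, 7.78 and 7.54 log2 units in the arrays labelled GATA3KO, against 8.20, 7.80 and 7.86 in the arrays labelled WT. Replicate 1 of the arrays labelled WT stood above the other 5, and replicate 1 labelled GATA3KO lay just above replicate 2 labelled WT, so the groups overlapped. The log2 change was -0.24 ± 0.11 (SE, adjusted p = 0.356 by limma), with an interval from -0.49 to 0.0038. Without replicate 1 of the arrays labelled WT the change was -0.12 (adjusted p = 0.673).

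Irf3, the constitutively expressed factor activated by TBK1 downstream of nucleic acid sensors, was steady across the arrays. It read 9.48, 9.51 and 9.53 log2 units in the arrays labelled GATA3KO, against 9.60, 9.51 and 9.56 in the arrays labelled WT, and the groups overlapped. The log2 change of -0.050 ± 0.046 (SE, adjusted p = 0.702 by limma) had an interval from -0.15 to 0.053, so a decrease beyond 1.11-fold or an increase beyond 1.04-fold lies outside it for this probe set. It was -0.027 without replicate 1 of the arrays labelled WT and -0.099 with all 4 probe sets averaged. The brightest probe set has an identifier that marks possible cross-hybridisation. The gene has 4 probe sets, 3 of which gave changes of -0.050, -0.037 and -0.053. The remaining one, the dimmest of the 4, read 6.05, 6.34 and 6.46 in the arrays labelled GATA3KO, against 6.47, 6.62 and 6.53 in the arrays labelled WT. Its groups did not overlap, which held for 18.9% of all probe sets, and its change of -0.26 ± 0.11 (SE) did not pass over the probe sets (adjusted p = 0.342 by limma), of which 1.69% did.

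Irf5, which acts downstream of Toll-like receptors and is best known from B cells and myeloid cells, had the smallest estimate. It read 6.11, 6.37 and 6.31 log2 units in the arrays labelled GATA3KO, against 6.31, 6.21 and 6.26 in the arrays labelled WT, with the lowest and the highest value both in arrays labelled GATA3KO. The change was 0.0058 ± 0.091 (SE, adjusted p = 0.987 by limma, interval -0.20 to 0.21). The second probe set gave 0.037 ± 0.11 (SE).

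Irf1, the activator that interferon gamma induces through a promoter GAS (shown above), had the narrowest interval of the 8 genes. It read 10.58, 10.58 and 10.65 log2 units in the arrays labelled GATA3KO, against 10.65, 10.69 and 10.72 in the arrays labelled WT, and the groups met at replicate 3 labelled GATA3KO and replicate 1 labelled WT. The log2 change was -0.084 ± 0.042 (SE, adjusted p = 0.409 by limma), and its interval from -0.18 to 0.010 leaves out a decrease beyond 1.13-fold and an increase beyond 1.01-fold. Irf2, its antagonist, read 8.24, 8.33 and 8.25 in the arrays labelled GATA3KO, against 8.34, 8.30 and 8.50 in the arrays labelled WT. Replicate 3 of the arrays labelled WT was the highest, the groups overlapped, and the change was -0.10 ± 0.065 (SE, adjusted p = 0.531 by limma, interval -0.25 to 0.041). Without that array it was -0.046 (adjusted p = 0.807). The single Irf2 probe set has an identifier that marks probes shared with related transcripts.

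Irf4, the factor of effector Treg cells, read 8.21, 8.12 and 8.19 log2 units in the arrays labelled GATA3KO, against 7.83, 7.91 and 8.39 in the arrays labelled WT. The spread was 0.05 in the arrays labelled GATA3KO and 0.30 in the arrays labelled WT (SD, n = 3 each), since replicate 3 labelled WT read above all others while replicates 1 and 2 read below all others. The log2 change of 0.12 ± 0.13 (SE, adjusted p = 0.729 by limma) had the widest interval of the 8 genes, from -0.16 to 0.40. Without replicate 3 of the arrays labelled WT it was 0.30 (adjusted p = 0.0766), still short of the threshold, and without replicates 1 or 2 of that group it was 0.016 or 0.059.

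The second Irf4 probe set pointed the other way. It read 4.90, 4.95 and 5.01 in the arrays labelled GATA3KO, against 5.14, 5.51 and 5.11 in the arrays labelled WT, all below the dim limit. Its groups did not overlap, which held for 18.9% of all probe sets. Its change of -0.30 ± 0.12 (SE) did not pass (adjusted p = 0.316 by limma over the probe sets). With both probe sets averaged the Irf4 change was -0.088, so the direction of Irf4 depends on the probe set used.

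Irf8, known from dendritic cells, monocytes and B cells and present at a lower level in T cells, read 7.35, 7.29 and 7.60 log2 units in the arrays labelled GATA3KO, against 7.17, 7.28 and 7.42 in the arrays labelled WT. Replicate 3 was the highest array in each group, and the groups overlapped. The change was 0.12 ± 0.098 (SE, adjusted p = 0.648 by limma, interval -0.096 to 0.34). Without replicate 3 of the arrays labelled GATA3KO it was 0.028, without replicates 1 or 3 of the arrays labelled WT 0.063 or 0.19, and the second probe set gave 0.034 ± 0.11 (SE).

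**Figure D1:**
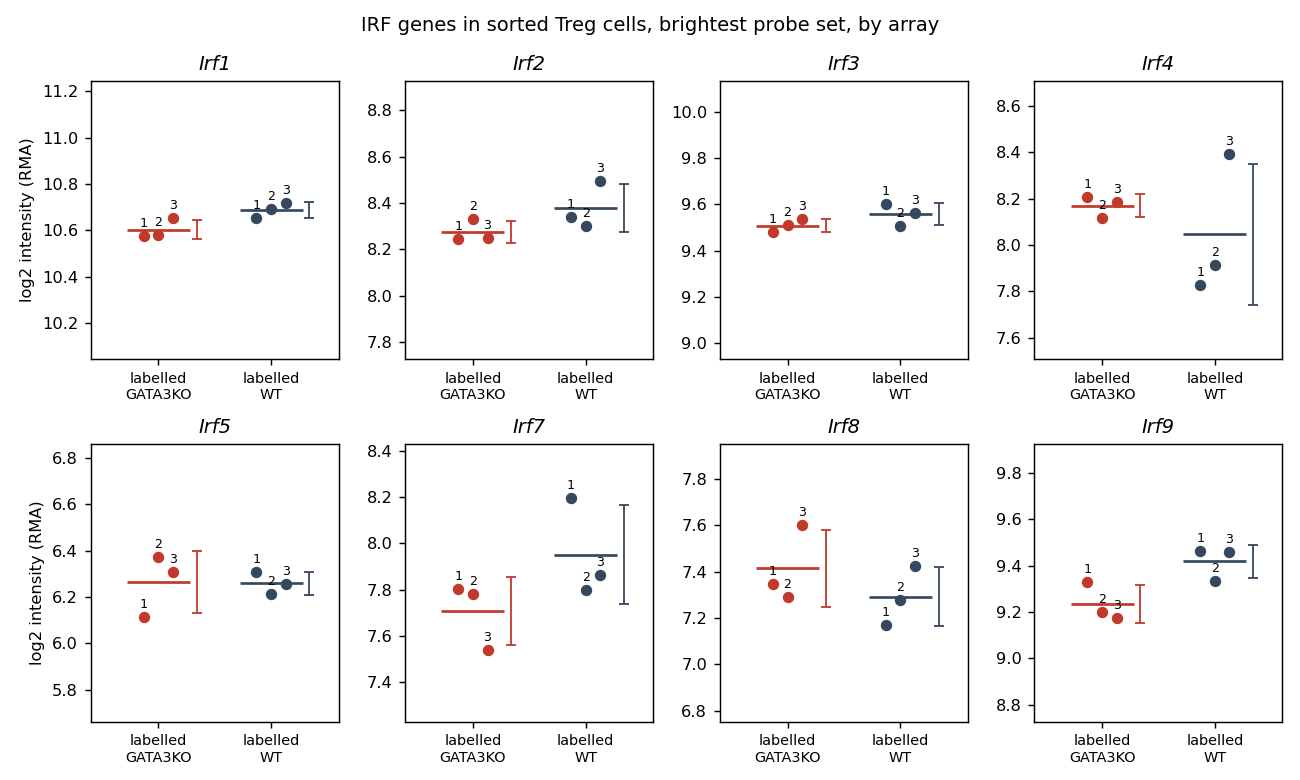
The log2 intensity of the brightest probe set of each IRF gene is plotted for each array, with arrays labelled GATA3KO on the left and WT on the right, numbered by replicate. Lines are group means and bars are SDs over 3 arrays, and every panel spans the same height; only for Irf9 do the points of the groups not overlap, and replicate 1 labelled WT stands out for Irf7 and replicate 3 labelled WT for Irf4.

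**Figure D2:**
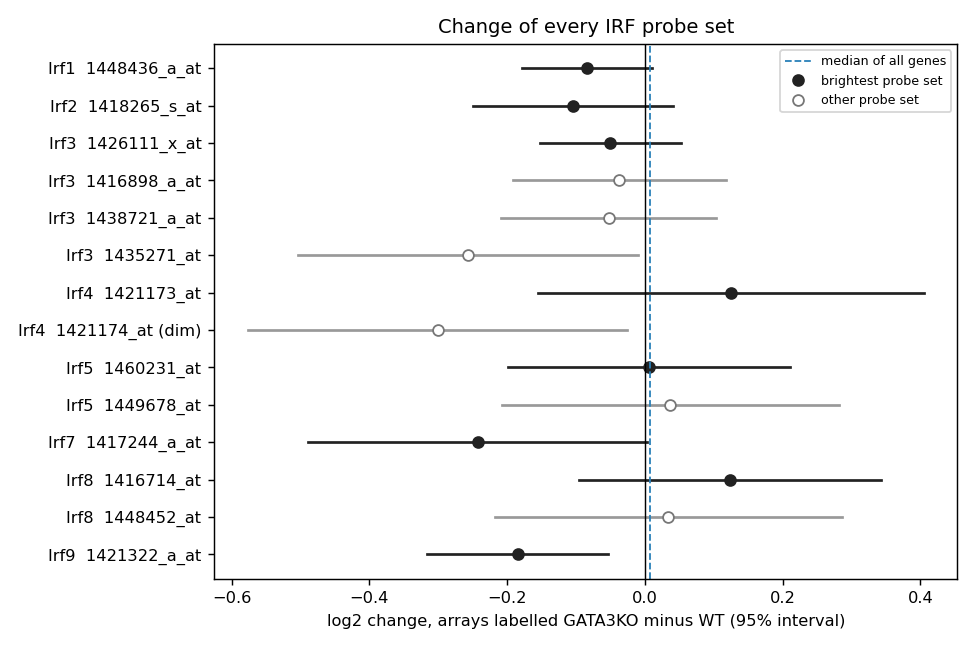
The log2 change (arrays labelled GATA3KO minus WT) of all 14 IRF probe sets is plotted with its 95% interval from limma, filled for the brightest probe set of a gene and open for the others. Among the brightest probe sets only the interval of Irf9 leaves out 0, and among the others those of the dimmest Irf3 and Irf4 probe sets do. Such an interval is the same as an unadjusted p under 0.05 in limma, which 14.4% of all genes and 13.6% of all probe sets reached. The 2 Irf4 probe sets lie on opposite sides of 0, and the dashed line is the median of all genes, at 0.0078.

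Irf5, Irf7 and Irf8 are abundant in cells that a sort can carry over, and markers of those cells were read on the same arrays. In bulk RNA fewer cells of a type and less RNA per cell cannot be told apart. Of 12 measured B cell markers 8 were dim, and the mean log2 level of the list was 5.08 to 5.16 in the arrays labelled GATA3KO, against 5.04 to 5.15 in the arrays labelled WT. Of its members Cd22, an inhibitory co-receptor, rose by a log2 change of 1.15 ± 0.11 (SE, adjusted p = 0.00152 by limma). The other 3 genes above the dim limit were Cd79b, with a change of 0.23 (adjusted p = 0.258), Ms4a1, with -0.40 (adjusted p = 0.412), and Cd72, with -0.040 (adjusted p = 0.862), and the 8 dim genes include Cd79a and Pax5. The part of B cells in these values was not tested. Of 16 measured monocyte, macrophage and dendritic cell markers 11 were dim, 11 had a change above 0 and 0 passed, with a median change of 0.050. Their mean level was 5.41, 5.52 and 5.60 in replicates 1, 2 and 3 labelled GATA3KO, against 5.43, 5.30 and 5.33 in the arrays labelled WT. Lyz2, the lysozyme gene of myeloid cells, read 6.55, 7.44 and 7.60 in the arrays labelled GATA3KO, against 6.54, 5.79 and 6.19 in the arrays labelled WT. Its change of 1.02 ± 0.26 (SE, adjusted p = 0.0849 by limma) was the largest of the list, with no overlap of the groups. Of 9 neutrophil markers all were dim by their mean over the 6 arrays, all 9 had a change above 0 and 0 passed. Over all genes 53.0% had a change above 0. The median change of the neutrophil markers was 0.22. The largest were those of S100a9 (1.10 ± 0.31, SE, adjusted p = 0.113 by limma) and Ngp (0.74 ± 0.27, SE, adjusted p = 0.220 by limma). For both the groups did not overlap, which held upwards for 11.3% of all genes. The mean level of the neutrophil markers was 4.65, 4.85 and 5.21 in the arrays labelled GATA3KO, against 4.47, 4.56 and 4.62 in the arrays labelled WT. In replicate 3 labelled GATA3KO the neutrophil genes S100a9 (6.59), Ngp (6.14), S100a8 (6.06) and Camp (5.66) were above the dim limit, and the rest were below it. S100a9 was above it in replicate 2 labelled GATA3KO as well (5.83). Camp was also above it in replicate 2 labelled GATA3KO (5.73) and replicate 1 labelled WT (5.63). Replicate 3 labelled GATA3KO was the highest array for both of these lists and for the brightest Irf8 probe set. On the second Irf8 probe set replicate 3 labelled WT was the highest, at 6.67, against 6.53 in replicate 3 labelled GATA3KO. The part of such cells in the Irf8 value was not tested. Of 7 measured plasmacytoid dendritic cell markers 4 were dim and 0 passed, with a mean of 5.91 to 6.07 in the arrays labelled GATA3KO and 5.97 to 6.21 in the arrays labelled WT. Only 1 of the 7 had a change above 0, and the median change was -0.14. The part of plasmacytoid dendritic cells in the Irf7 value was not tested. The 5 measured plasma cell markers, a type known for Irf4, had 0 past the threshold and a mean of 6.72 to 6.80 in the arrays labelled GATA3KO and 6.64 to 6.90 in the arrays labelled WT. That mean joins changes in both directions, with 3 of the 5 above 0. Jchain had a change of -0.78 ± 0.26 (SE, adjusted p = 0.179 by limma), with overlap of the groups. Derl3 (0.29, adjusted p = 0.195) and Tnfrsf17 (0.35, adjusted p = 0.198), both dim, pointed the other way by limma. The part of plasma cells was not tested.

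Upstream of the IRFs, 3 of 14 measured genes of interferon receptors, their kinases, STATs and inhibitors passed, and the IRF genes did not. Over all genes 2.21% passed. Ifnar1, a chain of the type I interferon receptor, read 8.45, 8.59 and 8.46 log2 units in the arrays labelled GATA3KO, against 8.76, 8.76 and 8.78 in the arrays labelled WT. It fell by 0.27 ± 0.055 on the log2 scale (SE, adjusted p = 0.0398 by limma). Ifnar2, the other chain of that receptor, was named after its values were seen and pointed the other way. It read 9.03, 9.10 and 8.96 in the arrays labelled GATA3KO, against 8.91, 8.80 and 8.83 in the arrays labelled WT. Its change of 0.18 ± 0.056 (SE) did not pass (adjusted p = 0.151 by limma). Its groups did not overlap, which held upwards for 11.3% of all genes. Jak1, the kinase shared by both interferon receptors and by many cytokine receptors, read 11.29, 11.27 and 11.15 in the arrays labelled GATA3KO, against 11.44, 11.50 and 11.49 in the arrays labelled WT, and fell by 0.24 ± 0.046 (SE, adjusted p = 0.033 by limma). Ptpn11, the gene of the phosphatase SHP-2, rose by 0.32 ± 0.065 (SE, adjusted p = 0.0377 by limma). Each of these 3 calls is fragile: all were lost without limma's intensity trend, Ptpn11 with its probe sets averaged, Ifnar1 in 6 of 6 fits with 1 array left out (adjusted p 0.0697 to 0.168), Jak1 in the 4 fits without replicates 2 or 3 of either group, and Ptpn11 in every such fit but that without replicate 1 labelled WT. The list's median change was -0.048, and with 1 array left out it ran from -0.080 (without replicate 2 labelled GATA3KO) to -0.012 (without replicate 1 labelled GATA3KO), with -0.014 without replicate 1 labelled WT. Stat2, the partner of Irf9, was looked up after the values were seen and had a change of -0.054 (adjusted p = 0.829).

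Of 18 measured sensors, adaptors and kinases that act on Irf3, Irf5 and Irf7, 1 fell and 0 rose, where 0.766% and 1.44% of all genes did. The median change of the list was -0.031, and 3.1e-06 without replicate 1 labelled WT. The gene that fell was Tlr7, the endosomal receptor of single-stranded RNA that signals through MyD88 to Irf5 and Irf7. It read 5.71, 5.46 and 5.50 log2 units in the arrays labelled GATA3KO, against 7.26, 6.91 and 7.05 in the arrays labelled WT, a wide gap with no overlap. Of the 3 arrays labelled GATA3KO 2 read below the dim limit, so the size of the fall may be understated. It fell by 1.52 ± 0.11 on the log2 scale (SE, adjusted p = 0.00037 by limma), and dropping any single array left the call in place (6 of 6 fits). With the Tlr7 probe sets averaged it fell by 0.88, still past the threshold. Irf5 and Irf7, beside it, had changes of 0.0058 and -0.24 that did not pass. The next gene by p, Azi2, an adaptor of TBK1, had a change of -0.19 (adjusted p = 0.163).

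Of 20 measured DNA-binding partners and cofactors of IRF proteins 0 passed in limma, and an unadjusted p under 0.05 was reached by 4 genes upwards and 3 downwards, where 8.63% of all genes reached it upwards and 5.8% downwards. Nfatc1, a calcium-regulated factor that can bind with Irf4, had a change of 0.29 ± 0.065 (SE, adjusted p = 0.0537), and Kat2b, a histone acetyltransferase, one of -0.23 ± 0.056 (adjusted p = 0.0704), both by limma. Nfatc1 passed in 4 and Kat2b in 2 of 9 other settings. Batf, which binds DNA together with Irf4 in T cells, was looked up after the values were seen and had a change of 0.15 (adjusted p = 0.336).

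Downstream, most genes of a list of interferon-induced genes had changes below 0 that did not pass, and a single gene of the list rose. Interferon-induced genes outside the list, such as Ifitm2 and Irgm2, passed in both directions and are given at the end. Isg15, Ifi44, Ifi27, Ddx58 and Xaf1 of the list had no measured value. Of 30 measured genes of the 35 listed, 1 rose and 0 fell past the threshold, where 1.44% and 0.766% of all genes did. Of the 30 genes 9 had a change above 0, where 53.0% of all genes did. An unadjusted p under 0.05 in limma was reached by 6 genes downwards and 1 upwards, where 5.8% and 8.63% of all genes reached it. The median was -0.067. Oasl1, an oligoadenylate synthetase-like gene, had the smallest p of those that did not pass, at -0.57 ± 0.15 (SE, adjusted p = 0.0974 by limma). Cxcl10, a chemokine gene whose ISRE is shown above, read 8.75, 8.67 and 8.52 log2 units in the arrays labelled GATA3KO, against 7.89, 7.36 and 7.59 in the arrays labelled WT. It rose by 1.03 ± 0.12 (SE, adjusted p = 0.00336 by limma), a call kept in 6 of 6 fits that each dropped an array.

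The mean level of the interferon-induced genes was 7.82, 7.67 and 7.61 log2 units in replicates 1, 2 and 3 labelled GATA3KO, against 7.99, 7.66 and 7.74 in those labelled WT, and the groups overlapped. Replicate 1 labelled WT was the highest array for 17 of the 30 genes, where it was the highest for 19.2% of all genes, a count made after the values were seen. The same array was the highest for Irf3, Irf7 and Irf9, and replicate 3 labelled WT was the highest for as many, Irf1, Irf2 and Irf4. For Irf9 these 2 arrays were nearly level, at 9.463 and 9.458. Without replicate 1 labelled WT the median of the interferon-induced genes was -0.021, and the Irf9 change was -0.16.

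**Figure D3:**
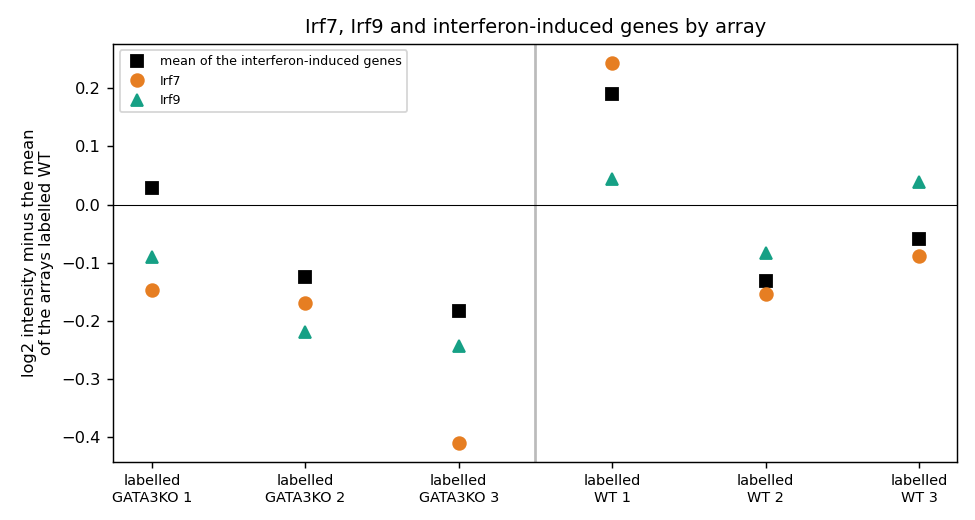
Each symbol is the log2 intensity of an array minus the mean of the 3 arrays labelled WT, for Irf7, Irf9 and the mean of 30 interferon-induced genes. Replicate 1 labelled WT is the highest array for all of them, for Irf9 nearly level with replicate 3 labelled WT, and replicate 3 labelled GATA3KO is the lowest.

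Of 21 measured genes of class I antigen presentation and other genes under Irf1 and Irf2, 0 passed in limma, an unadjusted p under 0.05 was reached by 3 upwards and 1 downwards (8.63% and 5.8% of all genes), and the median was 0.018. Casp1, the inflammatory caspase, had a change of 0.21 ± 0.051 (SE, adjusted p = 0.0677), and Cd274, the gene of PD-L1, one of -0.24 ± 0.061 (SE, adjusted p = 0.0847), both by limma.

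Genes associated with Irf4 in effector Treg cells held calls in both directions, while Irf4 did not pass. Of 21 measured genes 5 rose and 1 fell, where 1.44% and 0.766% of all genes did. The median change was 0.055, or 0.17 without replicate 1 labelled WT. The list was put together with earlier results of these data known, so its count is no independent evidence. Gzmb, the gene of granzyme B, rose by 1.45 ± 0.11 (SE), also in each of the 6 fits that dropped an array. Ccr6, a chemokine receptor gene, rose by 0.57, Rora, the gene of a nuclear receptor, by 0.49, Myb, a transcription factor gene, by 0.43, and Gata3 itself as given above. Klrg1, a receptor of terminally differentiated effector cells, fell by 0.58 ± 0.094 (SE). Of those 6 fits Klrg1 and Myb passed in 3, Ccr6 and Gata3 in 2 and Rora in 1, with all 5 calls lost without replicate 2 of either group, and all 5 lost their calls without limma's intensity trend.

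**Figure D4:**
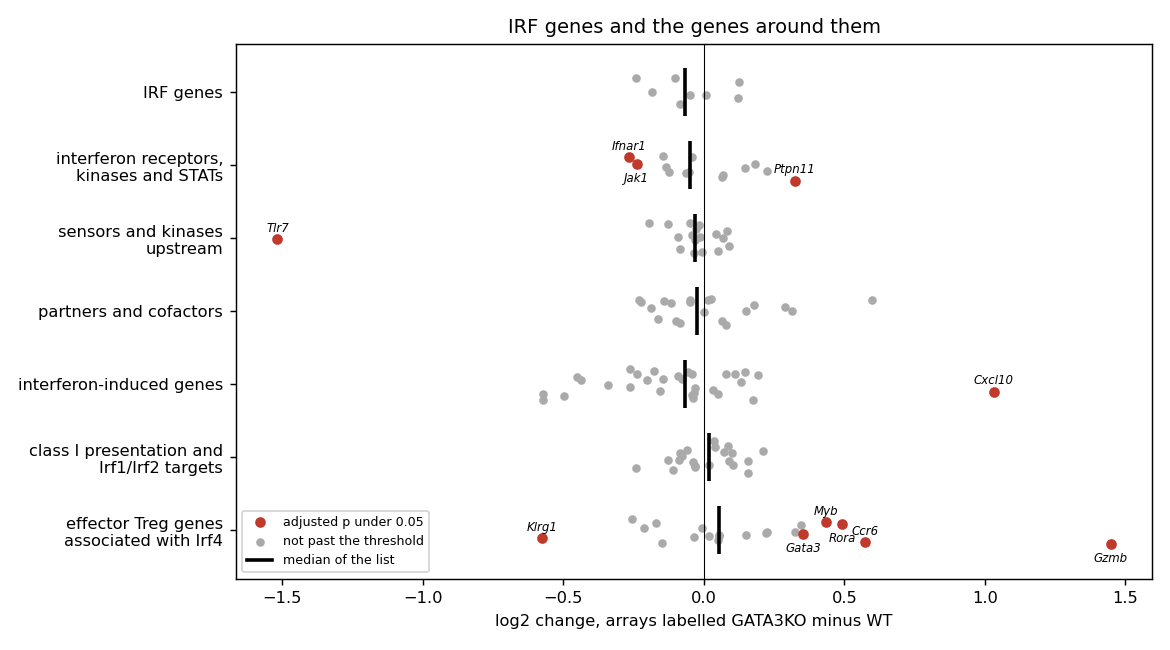
Each point is the log2 change (arrays labelled GATA3KO minus WT) of a gene of the IRF family or of a list of genes around it, red where limma's adjusted p was under 0.05, with a black bar at the median of the list. None of the 8 IRF genes is red, and the largest changes around them are those of Tlr7 (-1.52), Cxcl10 (1.03) and Gzmb (1.45).

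The genes whose pattern over the 6 arrays lay nearest to that of Irf9, the member with the smallest p, were Runx1, Rgs7 and Parp14. The measure was the root mean square difference of log2 values centred on each gene's mean, at 0.019, 0.031 and 0.033. Runx1, a transcription factor gene of blood cells, had a change of -0.17 ± 0.061 (SE, adjusted p = 0.225 by limma). Parp14, an interferon-induced ADP-ribosyltransferase gene, had a change of -0.16 ± 0.050 (SE, adjusted p = 0.165 by limma), and Rgs7 was on a dim probe set. With 12394 genes and 6 arrays such a likeness is a description only.

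The calls were also counted among all genes with these motifs in their promoter, with no test of the shares. Of 9888 tested genes with a promoter window 2.26% passed, 1.46% higher (144 genes) and 0.799% lower (79 genes). The share was 2.63% of 380 genes with the ISRE core (6 higher and 4 lower), 1.97% of 305 with the ETS-IRF composite (2 higher and 4 lower) and 3.11% of 835 with the GAS (9 higher, or 1.08%, and 17 lower, or 2.04%). Their median changes were 0.0076, -0.012 and 0.016, beside 0.0078 over all these genes.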

How the data were processed

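RNA of 6 Affymetrix arrays was compared, 3 labelled GATA3KO and 3 labelled WT, grouped by title. The authors deposited 1 log2 intensity per probe set and array for 22690 probe sets, and the submitters' processing notes name RMA, with no version. That the scale is log2 was judged from the values. Saturation and batches were not analysed here, since no scanner files or batch labels were used, and precision is limited by the number of arrays.

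Gene names came from the platform annotation (20393 with 1 gene, 20364 matched by Entrez identifier to RefSeq GRCm38.p6, 0 symbols changed). Groups were compared with limma 3.58.1 in R 4.3.3 (lmFit, eBayes with an intensity trend, two-sided, Benjamini-Hochberg over all 12394 genes, threshold 0.05). Other IRF probe sets were fitted over all 20393. Errors are limma's standard errors or SDs. The fit was tested on simulated data.

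The members, lists and tests were chosen with earlier results of these data known. The text names all members, list and marker genes past the threshold, the 2 genes of smallest p in each pathway list, and the 3 genes nearest to the member of smallest p. Other marker genes were named after their values were seen, and other exceptions are marked. The motif search was added after the values were seen. Array titles share replicate numbers, but deviations from the group means of same-numbered arrays correlated at 0.0388, -0.0176 and 0.0702, so the groups were compared unpaired.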

Additional observations from a re-analysis of the deposited data

How the results depend on the processing

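Of the 8 IRF genes 0 passed in either direction under all 9 other settings and all 6 fits with 1 array left out, except that Irf2, whose single probe set can read related transcripts, has no value without such probe sets. The lowest adjusted p of any member was 0.0617, for Irf9 with array quality weights. Irf1, Irf2, Irf3, Irf7, Irf8 and Irf9 kept their direction throughout. Irf4 turned to -0.088 with all its probe sets averaged, and Irf5, near 0, to -0.018 with quantile normalization repeated and to values between -0.048 and 0.081 with 1 array left out (below 0 without replicates 2 or 3 labelled GATA3KO, at -0.048 and -0.016, or replicate 2 labelled WT, at -0.018). The cause was not tested. The median change of the 8 IRF genes ran from -0.094 with all probe sets averaged to -0.037 without probe sets that can cross-hybridise. With 1 array left out, list medians ran from -0.078 to -0.047 for the IRF genes, -0.16 to -0.021 for interferon-induced genes, and 0.0025 to 0.042 for genes under Irf1 and Irf2. Over all genes, 179 were higher and 95 lower. These counts were 31 and 23 without the intensity trend, 400 and 185 with array quality weights, and from 35 to 165 and from 24 to 105 with 1 array left out, lowest without replicate 2 of either group or replicate 3 labelled GATA3KO. The replicate number as a block gave 234 higher and 134 lower genes and 0 IRF genes (by limma, Irf9 adjusted p = 0.128, Irf7 0.198). It also gave 5 lower genes of the interferon-induced list, where the unpaired fit called 0. Not every array correlated best with its own number. Around the dim limit, as for the second Irf4 probe set, a change may be understated.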

Other observations

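Among genes with the ISRE core in their promoter, 10 passed in limma, and these were named after their values were seen. Besides Cxcl10, the genes Gzma (granzyme A, log2 change 0.99 ± 0.17, SE), Tnfsf13b (the cytokine BAFF, 0.72 ± 0.15), Ifitm2 (an interferon-induced membrane protein, 0.66 ± 0.12), Dpp4 (the surface peptidase CD26, 0.49 ± 0.061) and Wls (a Wnt transport protein, 0.39 ± 0.062) rose. Crybg1 fell by 0.58, Gprasp1 by 0.57, Irgm2, an interferon-induced GTPase gene, by 0.30, and Tasor2 by 0.24. Irgm2 was the single gene past the threshold that held all 3 motifs searched. A motif match is a description of the sequence, and no binding was measured here.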
